A study of Homo sapiens with 12 samples.

Results

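The human genome encodes the chains of the collagens in genes named COL, a type number, A and a chain number. The 43 collagen chain genes described here were the protein-coding rows of the count tables whose name has that form, without COL17A1, of 60106 rows and 20298 protein-coding rows in all. The rule reads the gene name and type and no measured value.

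Each collagen molecule is built from chains that wind into a triple helix, either copies of a single chain or a mixture of partner chains. Fibrillar collagens form the banded fibrils of connective tissue, type IV collagens form the network of the basement membrane on which epithelial cells rest, and the fibril-associated collagens bind to fibril surfaces. In the prostate most fibrillar collagen is made by stromal fibroblasts, while epithelial and carcinoma cells contribute to the basement membrane and, in some lines, to the fibrillar and beaded-filament collagens as well.

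The study used the human prostate cancer lines PC3 and VCaP, each treated for 72 h with a non-targeting siRNA (NSI) or an siRNA against FOXA1 (siFOXA1), a forkhead pioneer factor of the prostate lineage. PC3 cells, grown in RPMI-1640, received 20 nM siRNA, and VCaP cells, grown in DMEM, received 40 nM. Both media held foetal calf serum, and both siRNAs were delivered with the same lipid reagent. PC3 libraries came from a stranded mRNA kit and VCaP libraries from a total RNA kit, with 3 libraries in each of the 4 groups and 12 in all. Each line is a single cell line, and nothing in the labels says that replicates were separate cultures, so the p-values measure the spread between these libraries, which may be technical.

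Values are CPM, counts divided by the TMM-scaled library size and brought to a common total, and differences are log2 fold changes of siFOXA1 against NSI. Levels of different genes are compared only as CPM per kilobase of exon. A gene is called where edgeR's quasi-likelihood test gave a Benjamini-Hochberg adjusted p under 0.05 over all genes tested in that line. Total counts were 123140099 to 188226483 per PC3 library and 48187047 to 59839211 per VCaP library. FOXA1 had 303, 244 and 266 CPM in PC3 NSI against 163, 182 and 162 CPM in PC3 siFOXA1, a fall of 0.68 on the log2 scale (SE 0.10, edgeR adjusted p = 0.0022). In VCaP it was 458, 468 and 544 CPM against 85.2, 73.6 and 83.0 CPM, a log2 fold change of -2.60 (SE 0.09, edgeR adjusted p = 1.84e-07), so 62.3% of the NSI level remained in PC3 and 16.5% in VCaP. The epithelial markers EPCAM, KRT8, KRT18 and CDH1 were detected in every library of both lines. EPCAM, KRT18 and CDH1 fell in PC3 (-0.45, -0.53 and -0.69), where KRT8 rose (0.39), and KRT18 fell in VCaP (-0.64). Of 10 fibroblast markers 6 passed the filter in PC3, with 2 higher and 3 lower, and 5 in VCaP, with 2 higher and 3 lower. Over all genes tested, 13.9% were higher and 13.9% lower in PC3, and 22.5% were higher and 23.3% lower in VCaP. Of the 3 lower in VCaP, PDGFRB passed the filter only through its NSI libraries. Levels differed among the 10 markers. DCN, FAP and THY1 were at or below 0.104 CPM in PC3 and 0.179 CPM in VCaP. FBLN1 was 8.42 to 10.7 CPM and PDGFRA 4.95 to 5.61 CPM in PC3 NSI, and LUM was 8.01 to 13.3 CPM in VCaP NSI. All 12 genes of an interferon-response list rose in PC3, where their summed level went from 348 to 534 CPM up to 5120 to 5540 CPM. In VCaP 8 of the 10 tested rose and 2 fell, and the sum of the 12 was 96.1 to 104 CPM against 87.4 to 103 CPM. Most of that sum came from OAS3, which fell from 83.2, 76.0 and 81.3 CPM to 56.2, 54.0 and 58.3 CPM. The sum therefore hides the rise of the 8, which had lower levels. Of the 8, OAS2 passed the filter only through its siFOXA1 libraries. The part of that response and of the epithelial marker changes in the collagen results was not tested. In these cell populations fewer cells of a type and less RNA per cell cannot be told apart.

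Among the 43 genes are 3 pairs that lie head to head on opposite strands, all of type IV, and the sequences between their start sites are shown because the partners of a pair are compared below. They come from RefSeq promoter windows of 300 bases on GRCh38.p14, with 250 bases before and 50 after the annotated start, of which only bases before the start are printed. Capitals mark bases that lie in the windows of both partners. The start sites of COL4A1 and COL4A2 are separated by 126 bases (chr13:110307158-110307283, printed on the plus strand, on which COL4A2 lies), all within both windows, with a GC content of 80.2%. COL4A4 (chr2:227164206-227164455, minus strand) and COL4A3 (chr2:227164374-227164623, plus strand) have start sites 418 bases apart and share 82 bases. COL4A6 (chrX:108439459-108439708, minus strand) and COL4A5 (chrX:108439588-108439837, plus strand) have start sites 379 bases apart and share 121 bases, and their printed stretches are less GC-rich, at 44.0% and 51.2%, than those of COL4A4 and COL4A3 at 72.8% and 66.4%.
COL4A1 and COL4A2: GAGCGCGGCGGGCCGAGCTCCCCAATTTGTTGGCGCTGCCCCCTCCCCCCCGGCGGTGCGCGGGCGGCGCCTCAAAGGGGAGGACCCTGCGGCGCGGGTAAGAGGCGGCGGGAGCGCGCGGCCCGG
COL4A4: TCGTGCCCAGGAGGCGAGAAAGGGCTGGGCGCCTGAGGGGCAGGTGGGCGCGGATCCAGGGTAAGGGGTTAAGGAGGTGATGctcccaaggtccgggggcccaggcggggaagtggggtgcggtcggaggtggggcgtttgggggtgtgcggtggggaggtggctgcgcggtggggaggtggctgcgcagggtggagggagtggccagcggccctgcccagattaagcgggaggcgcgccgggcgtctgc
COL4A3: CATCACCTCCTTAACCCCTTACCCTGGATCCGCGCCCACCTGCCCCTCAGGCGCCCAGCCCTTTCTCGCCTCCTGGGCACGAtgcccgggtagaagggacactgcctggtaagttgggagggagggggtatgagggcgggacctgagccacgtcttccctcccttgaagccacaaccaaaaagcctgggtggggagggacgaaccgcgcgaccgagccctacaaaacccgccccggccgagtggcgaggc
COL4A6: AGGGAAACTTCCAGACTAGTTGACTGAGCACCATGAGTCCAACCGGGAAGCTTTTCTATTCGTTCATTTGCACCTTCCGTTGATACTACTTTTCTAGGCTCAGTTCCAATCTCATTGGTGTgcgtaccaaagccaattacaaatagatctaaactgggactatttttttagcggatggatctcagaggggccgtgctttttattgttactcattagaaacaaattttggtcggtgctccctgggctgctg
COL4A5: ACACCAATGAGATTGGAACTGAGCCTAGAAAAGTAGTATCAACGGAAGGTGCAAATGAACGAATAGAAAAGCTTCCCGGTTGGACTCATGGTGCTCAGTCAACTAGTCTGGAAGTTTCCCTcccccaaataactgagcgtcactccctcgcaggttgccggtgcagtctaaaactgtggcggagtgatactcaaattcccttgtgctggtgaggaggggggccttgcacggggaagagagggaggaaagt

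RefSeq windows were matched for 31 of the 43 genes, giving 43 windows. No window was matched for COL1A1, COL1A2, COL2A1, COL3A1, COL5A2, COL6A1, COL6A5, COL8A1, COL9A3, COL14A1, COL20A1 and COL22A1, so their promoters were not searched. The genes with the largest change in each line, COL8A1 in PC3 and COL2A1 in VCaP, are among them. A search on both strands used 3 forkhead core motifs. The first was TGTTTAC, held by 3.42% of windows. The next was TATTTAC, held by 2.67%. The last was TGTTTGC, held by 3.89%. At least 1 of the 3 occurred in 9.57% of all 35116 windows of the same length and in 2 of the 43 collagen windows (4.65%), both of COL11A2, which was not called in either line. None of the sequences printed above holds any of these letters in its window. A match or its absence describes only these letters in these windows.

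Most collagen genes that changed in PC3 rose, and in VCaP rises and falls were mixed, with the steepest changes being falls. In PC3 36 of the 43 genes passed the filter on low counts and 17 were called (47.2%), against 27.7% of all 26478 genes tested. Of the 36 tested, 15 rose, against 13.9% of all genes tested, and 2 fell, against 13.9% of all genes tested. The median log2 fold change was 0.39 over the 36 genes and -0.01 over all genes tested. Of the 15, 13 passed the filter on low counts in both groups, and COL4A3 and COL14A1 passed only through their siFOXA1 libraries. Passing through 1 group alone favours that group being higher, so the calls of COL4A3 and COL14A1 are no separate support for a rise. In VCaP 28 genes were tested and 14 were called, a share near the 45.8% of all 22939 genes tested. Of the 28 tested, 6 rose, against 22.5% of all genes tested, and 8 fell, against 23.3% of all genes tested. The median log2 fold change was -0.24 against 0.02. Of the 6, COL22A1 passed the filter only through its siFOXA1 libraries.

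The PC3 libraries appear to pair by number, and with the replicate number as a block 18 collagen genes were called, 15 higher and 3 lower, while the share over all genes became 42.8% (11333 genes, 19.7% higher and 23.1% lower). Without NSI replicate 3 the PC3 call count was 11 and without siFOXA1 replicate 1 it was 10, where the share of all genes called was 17.4% (9.34% higher and 8.08% lower) and 14.7% (9.02% higher and 5.64% lower). With library size alone as the scaling, the split over all PC3 genes was 4607 higher to 2562 lower (27.1% of genes called, 17.4% higher and 9.68% lower) in place of 3675 to 3669. In that edgeR fit 17 collagen genes were called higher and 0 lower, with 3 lower at an unadjusted p under 0.05, and DESeq2 called 3 lower.

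**Figure D1:**
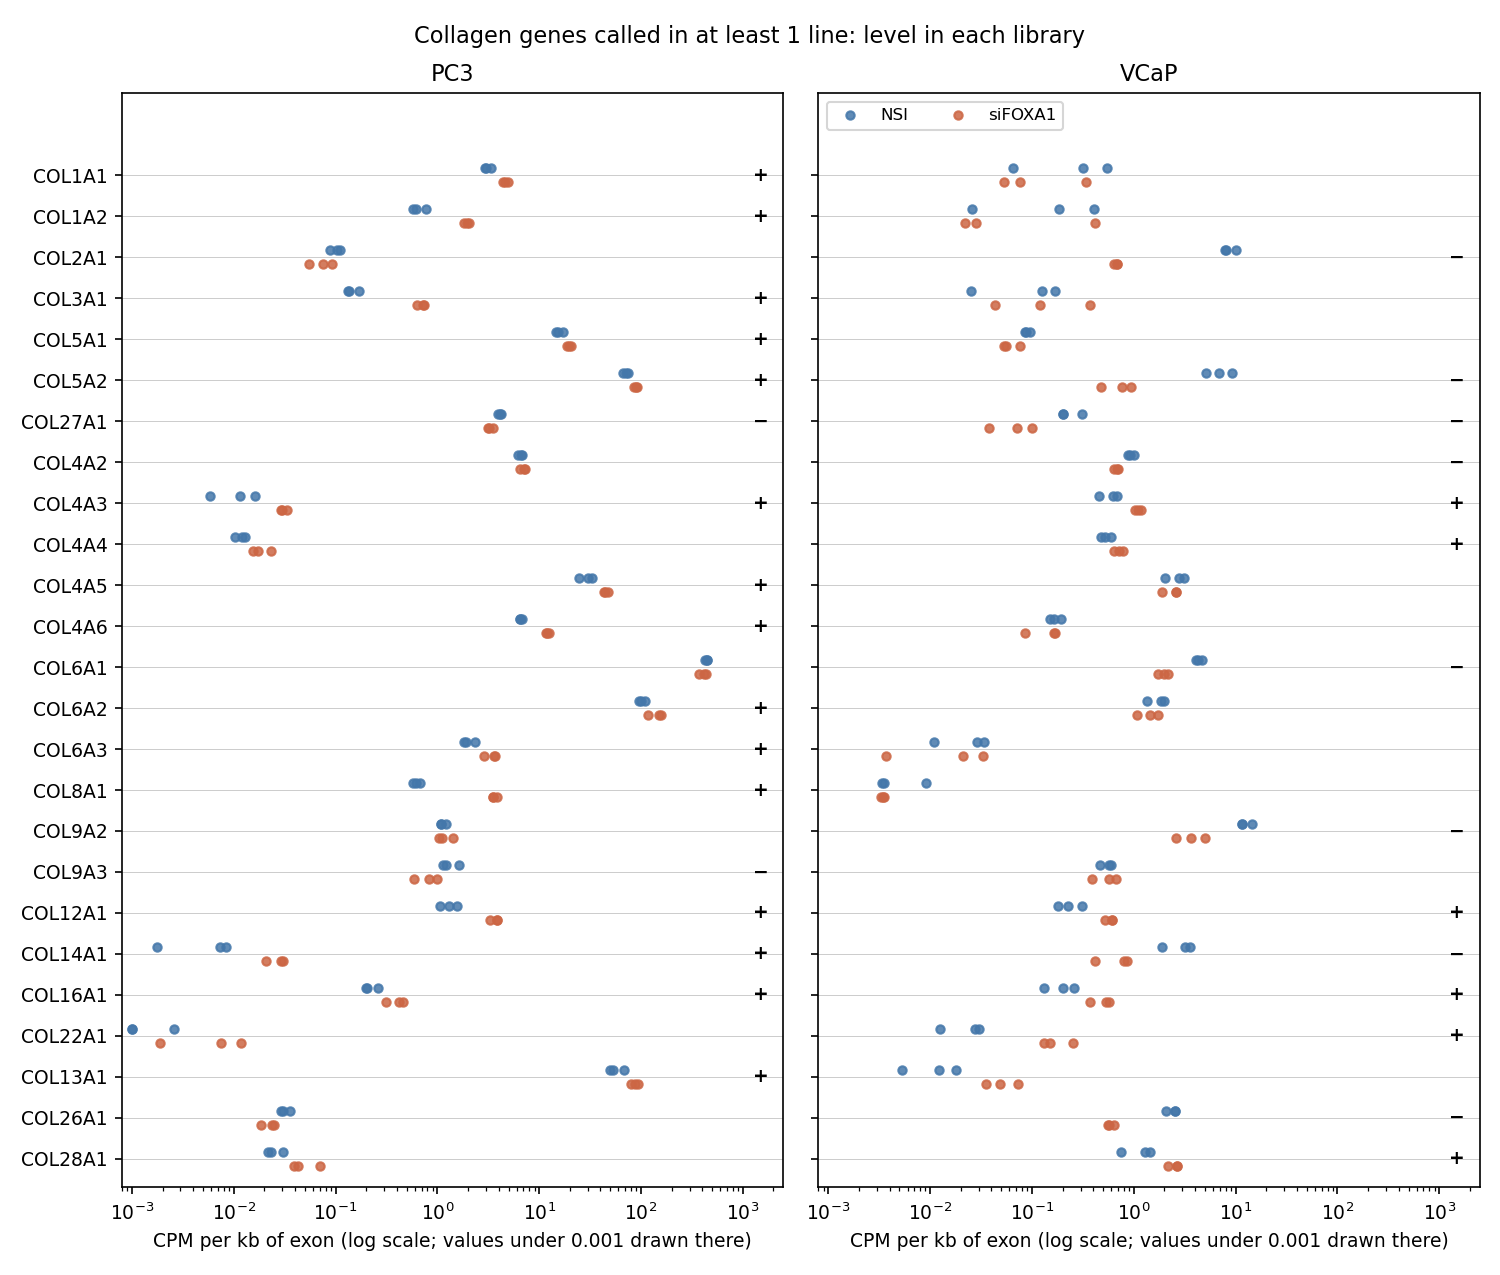
Level of each collagen gene called in at least 1 line, in CPM per kilobase of exon on a log axis, in every PC3 (left) and VCaP (right) library, with NSI libraries in blue and siFOXA1 libraries in orange. Plus and minus signs at the right edge mark genes called higher or lower; in PC3 the 3 siFOXA1 points of COL8A1, COL3A1 and COL12A1 sit right of the NSI points, and in VCaP those of COL2A1 and COL5A2 sit left of them.

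The fibrillar class holds 11 of the genes, of which 10 were tested in PC3 and 8 in VCaP. In PC3 5 rose and 1 fell, and in VCaP 3 fell and 5 were not called. The called share was 60.0% in PC3 and 37.5% in VCaP, against 27.7% and 45.8% of all genes tested. COL3A1 (chr2:189839046-189877472 on GRCh37), the type III chain of elastic tissues, was 0.759, 0.941 and 0.735 CPM in PC3 NSI against 3.50, 4.12 and 4.03 CPM after siFOXA1. The 2 groups were far apart, a 4.79-fold difference of means, and the log2 fold change was 2.26 (SE 0.15, edgeR adjusted p = 2.92e-05). COL1A2, the α2 chain of type I collagen, was 3.37, 4.21 and 3.12 CPM against 9.99, 10.6 and 11.2 CPM, with no overlap, and rose by 1.57 (SE 0.13, edgeR adjusted p = 9.16e-05). COL1A1, the α1 chain of the same molecule, was 20.3, 22.8 and 19.8 CPM against 29.8, 31.4 and 33.2 CPM, a smaller rise of 0.59 (SE 0.09, edgeR adjusted p = 0.00248). Both type I chains therefore rose in PC3, the less abundant α2 chain by more.

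The type V chains, which join type I fibrils and limit their diameter, rose by equal amounts in PC3. COL5A1 was 145, 125 and 131 CPM against 177, 161 and 168 CPM, a log2 fold change of 0.33 (SE 0.09, edgeR adjusted p = 0.0251). COL5A2 (chr2:189896622-190044605 on GRCh37) was 515, 461 and 498 CPM against 599, 616 and 640 CPM, also 0.33 (SE 0.08, edgeR adjusted p = 0.0194). Neither chain's groups overlapped. In VCaP COL5A2 had 63.9, 47.4 and 35.5 CPM in NSI, against 6.47, 5.37 and 3.35 CPM after siFOXA1, a log2 fold change of -3.27 (SE 0.26, edgeR adjusted p = 1e-05) that left 10.3% of the NSI mean. COL5A1 was at 0.751, 0.737 and 0.817 CPM against 0.476, 0.656 and 0.457 CPM in VCaP, and its log2 fold change of -0.54 did not pass the test (edgeR adjusted p = 0.0535). It was called lower with ties rounded to the even number, in the 12-library fit and without siFOXA1 replicate 2 (edgeR adjusted p down to 0.0351). COL5A2 lies next to COL3A1 on chromosome 2, transcribed toward it, with 19150 bases between the 2 genes on GRCh37.

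COL2A1 (chr12:48366748-48398289 on GRCh37), the type II chain of cartilage fibrils, showed the steepest fall among the collagen genes of VCaP. Its levels were 41.4, 39.8 and 51.7 CPM in NSI and 3.49, 3.26 and 3.50 CPM after siFOXA1, so the 3 treated libraries were close together and held 7.72% of the NSI mean. The log2 fold change was -3.70 (SE 0.11, edgeR adjusted p = 9.82e-08). In PC3 COL2A1 was at most 0.568 CPM in any library and its change of -0.45 was not called. COL27A1, a fibrillar chain found in developing cartilage, fell in both lines. It was 32.2, 33.2 and 30.8 CPM against 24.5, 27.3 and 25.1 CPM in PC3, a log2 fold change of -0.32 (SE 0.08, edgeR adjusted p = 0.0226). In VCaP it was 2.39, 1.57 and 1.56 CPM against 0.556, 0.298 and 0.781 CPM, a log2 fold change of -1.75 (SE 0.30, edgeR adjusted p = 0.00132). The groups did not overlap in either line.

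The fibrillar genes that were tested but not called in PC3 were COL24A1 (0.09), COL11A2 (0.45), COL2A1 and COL5A3 (-0.00), each under 1 CPM, and COL11A1 did not pass the filter. In VCaP COL11A2 (0.54), COL1A1, COL1A2 and COL3A1 were tested and not called besides COL5A1. Among the PC3 fibrillar calls, COL27A1 was lost with library size alone, in the 12-library fit and without any 1 of the 3 NSI libraries, siFOXA1 replicate 1 or siFOXA1 replicate 3 (edgeR adjusted p up to 0.167). COL5A2 was lost in the 12-library fit and on omitting NSI replicate 3 or siFOXA1 replicate 3 (up to 0.154), COL5A1 when NSI replicate 3 or either of siFOXA1 replicates 1 and 3 was omitted (up to 0.0976), and COL1A1 in the 12-library fit (0.266).

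COL1A1, COL1A2 and COL3A1 differed between VCaP libraries more than between the VCaP groups. COL1A1 was 3.70, 0.438 and 2.15 CPM in NSI replicates 1, 2 and 3 and 0.357, 2.29 and 0.514 CPM in siFOXA1 replicates 1, 2 and 3. COL1A2 was 2.21, 0.139 and 1.01 CPM against 0.119, 2.23 and 0.152 CPM, and COL3A1 was 0.924, 0.139 and 0.695 CPM against 0.238, 2.07 and 0.666 CPM. NSI replicate 1, NSI replicate 3 and siFOXA1 replicate 2 were high for all 3 genes, NSI replicate 2 and siFOXA1 replicate 1 were low for all 3, and siFOXA1 replicate 3 was low for COL1A1 and COL1A2 and close to NSI replicate 3 for COL3A1. The log2 fold changes were -1.0 (SE 0.74), -0.44 (SE 0.98) and 0.74 (SE 0.71), and none was called. Without siFOXA1 replicate 2 they became -2.26 (edgeR adjusted p = 0.0416), -3.02 (edgeR adjusted p = 0.0426) and -0.37, so the first 2 were then called. COL6A3 also had its highest VCaP values in NSI replicates 1 and 3 and siFOXA1 replicate 2, at 0.366, 0.313 and 0.358 CPM. Its other VCaP values were 0.0397 to 0.228 CPM. COL11A1, under the filter, had 0.077, 0.122 and 0.278 CPM in the same libraries and 0 CPM in the others.

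Of the 10 fibroblast markers, DCN also had its highest values in NSI replicate 3 and siFOXA1 replicate 2, at 0.156 and 0.179 CPM (9 counts each), against 0.0198 to 0.0578 CPM in the other VCaP libraries. The summed level of the 10 markers did not follow these libraries, but changes as small as those of DCN cannot show in it. The sum was 20.8, 17.3 and 15.4 CPM in NSI, against 10.0, 10.6 and 9.02 CPM after siFOXA1. Most of it in NSI came from LUM, which encodes lumican and fell from 13.3, 10.1 and 8.01 CPM to 0.714, 0.716 and 0.571 CPM. In PC3 the sum was 17.4 to 19.9 CPM against 14.7 to 15.2 CPM, with POSTN (1.77) and ACTA2 (1.66) higher and FBLN1 (-1.06), PDGFRB (-0.66) and PDGFRA (-0.55) lower. A gene on the other strand overlaps 38.3% of the exon length of ACTA2, which the PC3 counts cannot separate. No VCaP group had a marker at 0 in all 3 libraries, and the part of other cells in the spread of COL1A1, COL1A2 and COL3A1 was not tested.

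**Figure D2:**
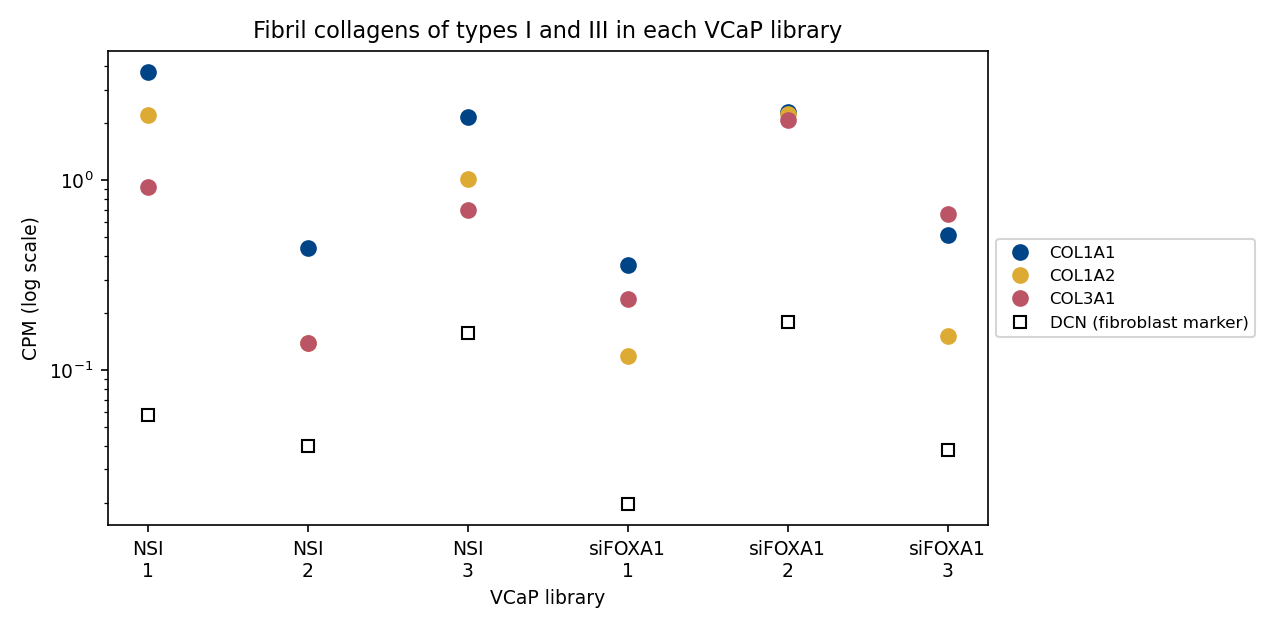
Level of COL1A1, COL1A2 and COL3A1 (filled circles) and of the fibroblast marker DCN (open squares) in each of the 6 VCaP libraries, in CPM on a log axis. NSI replicate 1, NSI replicate 3 and siFOXA1 replicate 2 are high for all 3 collagen genes, with COL1A1 at 3.70, 2.15 and 2.29 CPM, and DCN is at most 0.179 CPM; COL1A2 and COL3A1 coincide in NSI replicate 2.

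The basement membrane class consists of the 6 type IV genes, all tested in both lines. In PC3 3 rose and 3 were not called, and in VCaP 2 rose and 1 fell. The X-linked partners COL4A5 and COL4A6, whose shared stretch is printed above, both rose in PC3. COL4A5 was 256, 194 and 233 CPM against 347, 337 and 370 CPM, a log2 fold change of 0.63 (SE 0.11, edgeR adjusted p = 0.00445). COL4A6 was 46.4, 44.7 and 44.4 CPM against 80.3, 81.0 and 86.3 CPM, a log2 fold change of 0.87 (SE 0.08, edgeR adjusted p = 0.000138). In neither gene did the groups overlap, and both were also called under every alternative fit. In VCaP their changes were -0.17 and -0.29, and neither was called.

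The partners COL4A3 and COL4A4, chains of the mature kidney basement membrane, both rose in VCaP. COL4A3 was 5.03, 5.54 and 3.65 CPM against 8.87, 9.52 and 8.40 CPM, a log2 fold change of 0.92 (SE 0.15, edgeR adjusted p = 0.000751). COL4A4 was 4.78, 5.96 and 5.18 CPM against 6.37, 7.22 and 7.94 CPM, a smaller change of 0.44 (SE 0.12, edgeR adjusted p = 0.0149) that was lost without NSI replicate 1 (0.0651). Every siFOXA1 value of either gene lay above every NSI value. In PC3 both were scarce, at most 0.271 CPM. COL4A3, tested only because its siFOXA1 libraries passed the filter, was called there (1.44) on 44 counts in all NSI libraries and 118 in all siFOXA1 libraries, a call lost without siFOXA1 replicate 1 or siFOXA1 replicate 3 (up to 0.0671), and COL4A4 changed by 0.68 without passing the test.

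COL4A1 and COL4A2 encode the chains present in nearly every basement membrane. In PC3 neither was called, with log2 fold changes of 0.00 and 0.10 and overlapping groups. In VCaP COL4A2 was 5.53, 5.72 and 6.32 CPM against 4.43, 4.02 and 4.32 CPM and fell by 0.46 on the log2 scale (SE 0.10, edgeR adjusted p = 0.00467). Its partner COL4A1 was only 0.0869 to 0.324 CPM over the 6 VCaP libraries, and its change of 0.65 was not called. In PC3 COL4A1 was 14.6 to 18.4 CPM, and the COL4A1 level per length was 0.345 of that of COL4A2 in PC3 NSI and 0.0213 of it in VCaP NSI.

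The beaded filament class holds the type VI genes, which form microfibrils near the cell surface. COL6A1 (chr21:47401651-47424964 on GRCh37) was the most abundant collagen gene per kilobase in PC3, at 434 ± 10.3 CPM per kb in NSI and 407 ± 36.6 after siFOXA1 (SD, n = 3). Its CPM values of 1870, 1790 and 1870 against 1860, 1760 and 1560 overlapped, and the log2 fold change of -0.09 was not called. COL6A2 was 438, 485 and 420 CPM against 663, 697 and 519 CPM in PC3, a log2 fold change of 0.48 (SE 0.12, edgeR adjusted p = 0.0198), and COL6A3 was 25.4, 19.9 and 20.9 CPM against 40.2, 31.4 and 39.0 CPM, a log2 fold change of 0.74 (SE 0.13, edgeR adjusted p = 0.00403). The 2 groups were apart for both. The COL6A2 call did not survive the omission of either NSI replicate 1 or 3, nor that of siFOXA1 replicate 1 or 2 (up to 0.0845).

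In VCaP it was COL6A1 that changed. Its NSI values were 19.7, 18.0 and 17.3 CPM against 9.25, 8.49 and 7.31 CPM, a log2 fold change of -1.13 (SE 0.10, edgeR adjusted p = 1.89e-05), leaving 45.5% of the NSI mean. COL6A2 (-0.27) and COL6A3 (-0.36) were not called in VCaP, and COL6A3 was at most 0.366 CPM there. The remaining type VI genes COL6A5 and COL6A6 did not pass the filter in either line.

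The fibril-associated class holds 10 genes. In PC3 8 were tested, 3 rose and 1 fell, and in VCaP 6 were tested, 3 rose and 2 fell. COL12A1, which lies along type I fibrils, rose in both lines. It was 18.7, 12.8 and 15.9 CPM against 47.0, 40.1 and 47.0 CPM in PC3 (log2 fold change 1.50, SE 0.14, edgeR adjusted p = 0.000187) and 2.18, 3.75 and 2.73 CPM against 6.29, 7.45 and 7.37 CPM in VCaP (1.29, SE 0.18, edgeR adjusted p = 0.000316). The means differed by 2.83-fold and 2.44-fold, with no overlap. COL16A1, a chain found with thin fibrils, also rose in both lines. It was 1.25, 1.62 and 1.22 CPM against 2.55, 2.82 and 1.91 CPM in PC3 (0.83, SE 0.19, edgeR adjusted p = 0.0134) and 1.60, 1.24 and 0.799 CPM against 3.27, 3.50 and 2.27 CPM in VCaP (1.32, SE 0.25, edgeR adjusted p = 0.00214). Omitting NSI replicate 3, or siFOXA1 replicate 1, ended the PC3 call of COL16A1 (up to 0.0599).

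COL14A1, another chain on the surface of type I fibrils, went in opposite directions in the 2 lines. In VCaP it was 25.0, 27.5 and 14.8 CPM against 6.67, 6.30 and 3.24 CPM, a log2 fold change of -2.05 (SE 0.29, edgeR adjusted p = 0.000323) that left 24.1% of the NSI mean. In PC3 it was called higher (2.15) on low levels that passed the filter only in siFOXA1, 22 counts in all NSI libraries and 96 in all siFOXA1 libraries, and the call was lost without siFOXA1 replicate 1 (edgeR adjusted p = 0.0506). COL22A1, found at tissue junctions such as muscle to tendon, had 24 counts over the VCaP NSI libraries and 174 over the siFOXA1 libraries and was called higher (2.90), though it passed the filter only through siFOXA1. In PC3 it did not pass the filter.

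The type IX chains coat cartilage fibrils, and COL9A2 was the most abundant collagen gene per kilobase in VCaP, at 12.6 ± 1.72 CPM per kb in NSI (SD, n = 3). Its CPM values were 41.6, 33.4 and 32.8 in NSI and 14.4, 10.5 and 7.46 after siFOXA1, a fall of 1.74 on the log2 scale (SE 0.20, edgeR adjusted p = 0.000105). In PC3 COL9A2 was 3.13, 3.46 and 3.14 CPM against 3.21, 4.12 and 2.99 CPM, with overlapping groups and no call (0.08). COL9A3 behaved the other way round. It was 2.99, 4.06 and 2.82 CPM against 2.05, 2.44 and 1.47 CPM in PC3, a fall of 0.73 (SE 0.21, edgeR adjusted p = 0.0347), and overlapped in VCaP at 1.50, 1.41 and 1.16 CPM against 1.67, 1.43 and 0.971 CPM. The PC3 call of COL9A3 was lost with library size alone and without any 1 of the NSI libraries, siFOXA1 replicate 1 or siFOXA1 replicate 3 (up to 0.117). COL9A1 (0.58), COL20A1 (-0.59) and COL21A1 (0.38) were tested in PC3 and not called, and COL19A1 did not pass the filter in either line.

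COL8A1 (chr3:99357319-99518070 on GRCh37), a short-chain network collagen of vessel walls and the cornea, had the largest log2 fold change of the PC3 collagen genes. NSI libraries had 3.48, 3.81 and 3.27 CPM and siFOXA1 libraries 20.2, 20.1 and 22.2 CPM, a 5.91-fold difference of means with tight replicates in both groups. The log2 fold change was 2.56 (SE 0.10, edgeR adjusted p = 2.47e-06), and the call held under every alternative. Its network partner COL8A2 was 1.20, 1.50 and 1.14 CPM against 1.14, 1.28 and 1.04 CPM and was not called (-0.15). In VCaP COL8A1 was at most 0.0521 CPM and not tested, and COL8A2 changed by -0.09 without a call. COL10A1, the third of this class and a marker of hypertrophic cartilage, was not called in PC3 (0.39) and not tested in VCaP.

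COL13A1, a membrane-spanning collagen of cell adhesion sites, was the fourth most abundant collagen gene per kilobase in PC3 and rose there. It was 172, 219 and 161 CPM against 283, 301 and 261 CPM, a log2 fold change of 0.62 (SE 0.13, edgeR adjusted p = 0.00788), with no overlap. The transmembrane COL25A1 (-0.80) was not called in PC3, COL23A1 did not pass the filter there, and none of the 3 transmembrane genes was tested in VCaP. COL18A1, the basement membrane collagen from which endostatin is cleaved, was 188, 213 and 178 CPM against 166, 183 and 122 CPM in PC3. It was not called (-0.30, edgeR adjusted p = 0.163), and with the replicate number as a block it was called lower (edgeR adjusted p = 0.0112). In VCaP it was 28.5, 26.3 and 28.8 CPM against 24.6, 26.5 and 20.9 CPM, overlapping and not called (-0.22). With no filter on low counts or without siFOXA1 replicate 2 it was called lower there (edgeR adjusted p down to 0.0396). The related COL15A1 did not pass the filter in either line. COL7A1, the anchoring fibril chain that ties epithelial basement membranes to the dermis, changed by 0.13 in both lines without a call.

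COL26A1 and COL28A1 fall outside the other classes. COL26A1 was 7.72, 6.22 and 7.75 CPM in VCaP NSI and 1.75, 1.71 and 1.94 CPM after siFOXA1, a log2 fold change of -2.01 (SE 0.13, edgeR adjusted p = 2.88e-06) with 24.9% of the NSI mean left. COL28A1, a collagen with von Willebrand factor domains, was 6.18, 5.56 and 3.18 CPM against 11.4, 11.3 and 9.23 CPM and rose by 1.10 (SE 0.21, edgeR adjusted p = 0.00224). In neither gene did the groups overlap. In PC3 COL26A1 (-0.49) and COL28A1 (1.02, edgeR adjusted p = 0.0589) were at most 0.300 CPM and not called.

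The genes under the filter stayed near 0. The 7 in PC3 had at most 14 counts and 0.0949 CPM in any library. The 15 in VCaP had at most 14 counts and 0.278 CPM, and 3 of them had groups that did not overlap, against 11.6% of all 23196 genes under the filter with at least 1 count. COL13A1 was 0.0578, 0.0398 and 0.0174 CPM against 0.238, 0.159 and 0.114 CPM, and COL23A1 was 0.0385, 0 and 0.0695 CPM against 0.139, 0.219 and 0.247 CPM. COL9A1 was lower, at 0.270, 0.120 and 0.0869 CPM against 0.0198, 0 and 0.0571 CPM. The other VCaP genes under the filter were COL5A3, COL6A5, COL6A6, COL8A1, COL10A1, COL11A1, COL15A1, COL19A1, COL20A1, COL21A1, COL24A1 and COL25A1.

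Whether the siFOXA1 effect differed between the lines was tested as an interaction over all 12 libraries. The difference, VCaP log2 fold change minus PC3 log2 fold change, was called for 14 of 37 collagen genes tested (37.8%), against 22.1% of all 30450 genes. Of the 37 tested, 14 were called more negative in VCaP, against 11.1% of all genes tested, and none more positive, against 11.1% of all genes tested. In that direction edgeR and DESeq2 each called 0, with 3 and 2 at an unadjusted p under 0.05. With the replicate block COL13A1 and COL9A3 were called more positive (edgeR adjusted p = 0.0441 and 0.0243). The lines also differ in dose, medium, kit, use of strand in counting and remaining FOXA1, and these cannot be told apart from the line.

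The largest differences were those of COL14A1 (-4.19, SE 0.59), COL5A2 (-3.62, SE 0.29) and COL2A1 (-3.27, SE 0.24). COL5A2 and COL14A1 are the 2 genes called higher in PC3 and lower in VCaP, with the limits of their PC3 calls given above. COL8A1 (-3.23, SE 0.73) and COL9A1 (-3.13, SE 0.93) were also called, although both were near 0 in VCaP, and their calls were lost without VCaP NSI replicate 3 for COL8A1 and without NSI replicate 1, siFOXA1 replicate 1 or siFOXA1 replicate 2 for COL9A1. COL9A2 (-1.83), COL26A1 (-1.54), COL27A1 (-1.44) and COL6A1 (-1.06) followed, and of these COL27A1 was called lower in both lines. The type IV genes COL4A6 (-1.17), COL4A5 (-0.81) and COL4A2 (-0.58) and the type V and VI genes COL5A1 (-0.89) and COL6A2 (-0.77) completed the 14. For COL6A2 the omission of VCaP NSI replicate 1 or 2, or of siFOXA1 replicate 3, ended the call.

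Of the genes called, 6 were called in both lines, which is 35.3% of the PC3 calls and 42.9% of the VCaP calls. Over all genes 3111 were called in both, which is 42.4% of the PC3 calls and 29.6% of the VCaP calls, and 68.5% of them had the same direction. Of the collagen genes COL12A1, COL16A1 and COL4A3 were called higher in both and COL27A1 lower in both, while COL5A2 and COL14A1 were opposite. For COL12A1, COL16A1 and COL4A3 the difference between lines was -0.23 (SE 0.24), 0.48 (SE 0.33) and -0.53 (SE 0.34), and none of these was called.

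**Figure D3:**
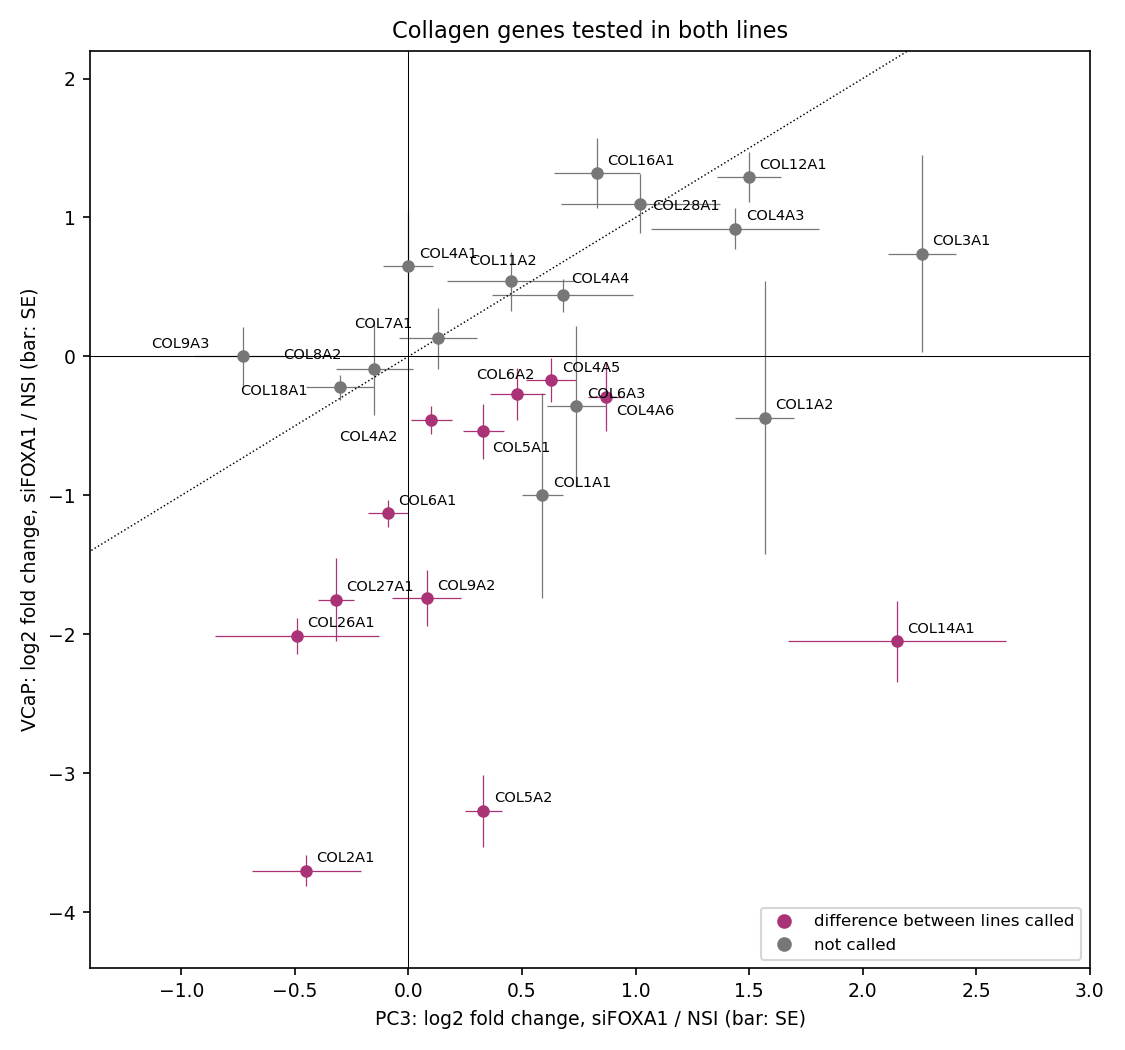
Log2 fold change of siFOXA1 against NSI in PC3 (horizontal) and VCaP (vertical) for the 27 collagen genes tested in both lines, with SE bars and a dotted line of equal change. Purple points are genes whose difference between lines was called; they all lie below the dotted line, with COL2A1, COL5A2 and COL14A1 farthest from it, and COL12A1 and COL16A1 lie near it.

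The 2 lines differed in which collagen genes made up their transcripts. In PC3 NSI COL6A1 (434 CPM per kb) was followed by COL6A2 (102), COL5A2 (70.7), COL13A1 (56.6), COL4A5 (29.2) and COL18A1 (28.3), each in CPM per kb. COL4A5 and COL18A1 did not differ beyond their SDs of 3.98 and 2.58, whereas each of the other gaps exceeded the summed SDs. In VCaP NSI the order was COL9A2 (12.6), COL2A1 (8.70), COL5A2 (7.05), COL6A1 (4.32) and COL18A1 (4.08), and COL2A1 and COL5A2 as well as COL6A1 and COL18A1 did not differ beyond their SDs. After siFOXA1 COL9A2 was 3.77 and COL18A1 3.51 CPM per kb in VCaP, COL28A1 was 2.49, COL4A5 2.37 and COL6A1 1.97, while COL2A1 and COL5A2 were down to 0.672 and 0.729. The 3 genes that led the VCaP NSI order, COL9A2, COL2A1 and COL5A2, were all among those called lower.

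The summed level of the 43 genes was 3744 ± 61.7 CPM in PC3 NSI and 4272 ± 247 CPM after siFOXA1 (SD, n = 3), with COL6A1 alone giving 44.5% of the sum over the 6 libraries. Without COL6A1 it was 1902 ± 56.3 against 2545 ± 101 CPM, a log2 ratio of 0.42 in place of 0.19. In VCaP it was 273.9 ± 30.8 CPM against 139.5 ± 17.9 CPM, a log2 ratio of -0.97, or -0.74 without COL5A2. In each line the lowest library of the higher group lay above the highest of the other. A sum over chosen genes is given as a description with no test.

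Because partner chains are assembled in 1 molecule, the ratio of their levels per length was computed in each library for pairs tested in the line. There were 17 such ratios, 9 in PC3 and 8 in VCaP, each compared by a two-sided exact permutation test that cannot go below 0.1 with 3 libraries a group. The smallest p of 0.1 was reached by 6 PC3 and 4 VCaP ratios, with an adjusted p of 0.17 over the 17 exact tests, so none could pass 0.05. The ratio of COL1A1 to COL1A2 in PC3 was 2.28, 2.12 and 2.35 on the log2 scale in NSI and 1.26, 1.26 and 1.25 after siFOXA1, or 4.76 against 2.39 as a linear ratio. The ratio of COL6A1 to COL6A2 was lower after siFOXA1 in both lines. In PC3, where COL6A2 rose, it was 2.10 ± 0.14 against 1.53 ± 0.12. In VCaP, where COL6A1 fell, it was 1.35 ± 0.21 against 0.49 ± 0.17 (log2, SD, n = 3).

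COL8A1 to COL8A2 in PC3 showed the widest shift of that line, from 1.18 ± 0.11 to 3.89 ± 0.23. COL9A2 to COL9A3 moved in opposite directions, upward in PC3 (-0.21 ± 0.20 against 0.61 ± 0.19) and downward in VCaP (4.52 ± 0.14 against 2.77 ± 0.13). COL5A1 to COL5A2 stayed at -2.18 ± 0.05 and -2.17 ± 0.10 in PC3 and went from -6.25 ± 0.49 to -3.52 ± 0.47 in VCaP. Among the head-to-head pairs, COL4A5 to COL4A6 was 2.14 ± 0.18 against 1.91 ± 0.03 in PC3, and COL4A3 to COL4A4 was 0.13 ± 0.30 against 0.63 ± 0.21 in VCaP, shifts of -0.24 and 0.50. COL4A1 to COL4A2 overlapped between groups in PC3, at -1.53 ± 0.19 against -1.63 ± 0.04. The larger shifts of these pairs were in scarce genes, with overlapping groups. COL4A1 to COL4A2 in VCaP was -5.55 ± 0.81 against -4.39 ± 0.45, a shift of 1.16. COL4A3 to COL4A4 in PC3 was -0.17 ± 0.61 against 0.75 ± 0.36, a shift of 0.92. COL4A5 to COL4A6 in VCaP also overlapped, with a shift of 0.18.

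**Figure D4:**
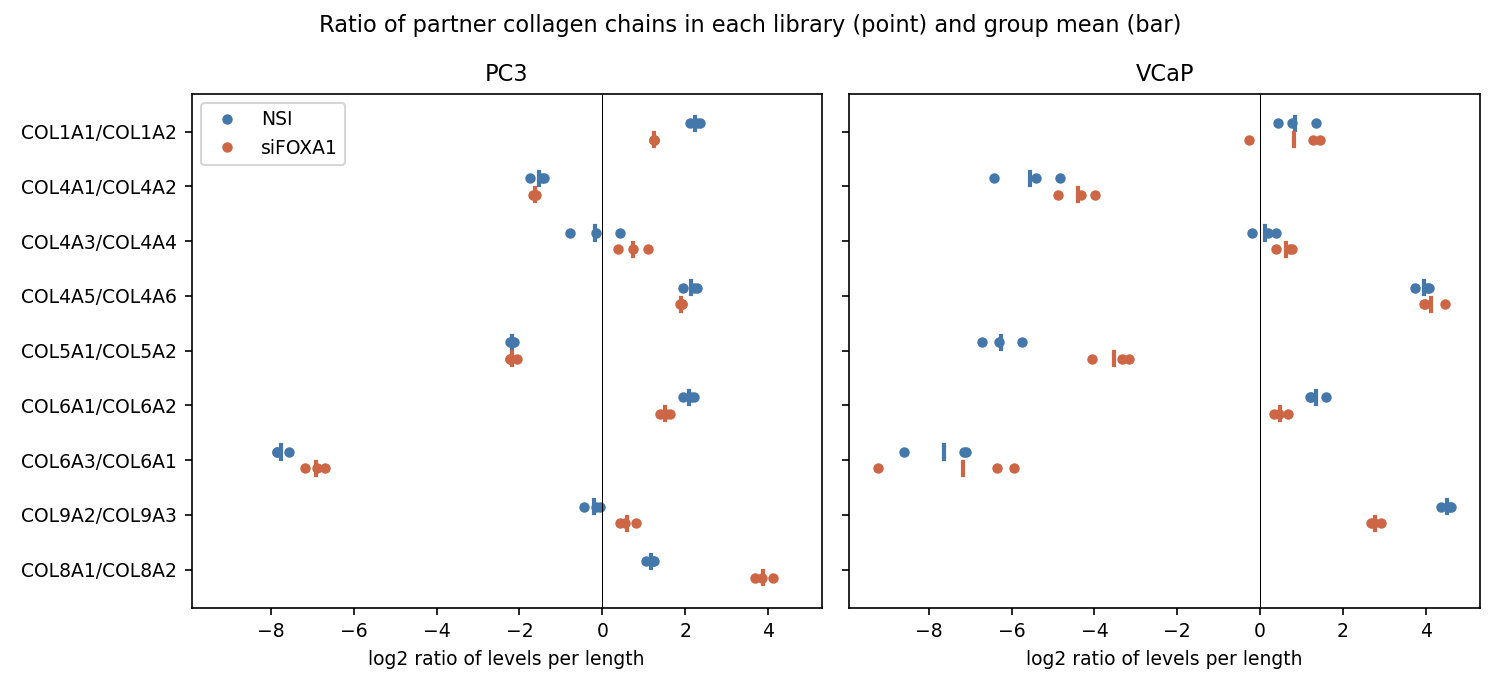
Log2 ratio of the levels per length of partner collagen chains in each library (points) with the group mean (bars) in PC3 (left) and VCaP (right), NSI in blue and siFOXA1 in orange. COL8A1/COL8A2 in PC3 and COL5A1/COL5A2 in VCaP show the widest separation, with shifts of 2.71 and 2.73, and COL5A1/COL5A2 in PC3 does not separate.

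The genes that modify and export collagen chains were read from a list of 22, of which 21 were tested in each line and COLGALT1 was not analysed here. In PC3 7 rose and 2 fell, with a median log2 fold change of 0.18, and in VCaP 3 rose and 11 fell, with a median of -0.27. Over all genes tested, 13.9% rose and 13.9% fell in PC3 with a median of -0.01, and 22.5% rose and 23.3% fell in VCaP with a median of 0.02, and these shares are the background for each list that follows. In PC3 the prolyl and lysyl hydroxylase genes P4HA2 (0.77), PLOD2 (0.77), P3H2 (0.69) and PLOD1 (0.52) had the largest changes among genes called higher, and MIA3, which encodes the export receptor TANGO1, fell (-0.52). In VCaP SERPINH1, the collagen chaperone HSP47, went from 13.3, 12.5 and 14.8 CPM to 6.59, 6.22 and 7.44 CPM, a log2 fold change of -1.01 (SE 0.10, edgeR adjusted p = 4.31e-05). P3H3 (-0.97), FKBP10 (-0.84) and P4HB (-0.83), which encode a prolyl 3-hydroxylase family member, a prolyl isomerase and the β subunit of prolyl 4-hydroxylase, fell with it, and P3H2 (1.41), P4HA1 (0.71) and FKBP14 (0.26) rose. Much of the P4HA1 rise lay in siFOXA1 replicate 3, with 26.8, 31.3 and 33.1 CPM in NSI against 39.8, 37.8 and 71.3 CPM. FKBP10 and P4HB rose in PC3 (0.35 and 0.32), although 20.3% of the exon length of P4HB overlaps genes on the other strand, which the PC3 counts cannot separate. The same limit applies to P4HA2 in PC3, with 14.8% of its exon length overlapped. With the replicate block SERPINH1 and SEC24D were called higher in PC3 as well.

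A list of 22 genes for processing, fibril assembly and cross-linking had 17 tested in each line. In PC3 4 rose and 2 fell (median -0.04), and in VCaP 3 rose and 11 fell (median -0.80). Of the 3 VCaP rises, ADAMTS2 passed the filter only through its siFOXA1 libraries, with 5, 7 and 4 NSI counts against 32, 42 and 36. With the replicate block LOXL1 and PXDN were called lower in PC3 as well, giving 4 higher and 4 lower. SPARC, a collagen-binding matricellular protein, and LOXL2, a lysyl oxidase, rose in PC3 by 1.06 and 0.98. TNXB (0.55) was also called higher there, though it has a near-identical partial copy among which multi-mapping reads are divided, and TLL1, a procollagen proteinase, fell (-0.34). In VCaP LUM (-3.97), PXDN (-2.38), FN1 (-0.87) and LOXL1 (-0.80), which encode lumican, peroxidasin, fibronectin and a lysyl oxidase, fell, and TLL2 rose (2.50). Peroxidasin forms the sulfilimine cross-links of type IV collagen, and VCaP NSI libraries held 111, 111 and 114 CPM of its transcript, against 24.4, 19.6 and 20.5 CPM in siFOXA1 libraries.

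**Figure D5:**
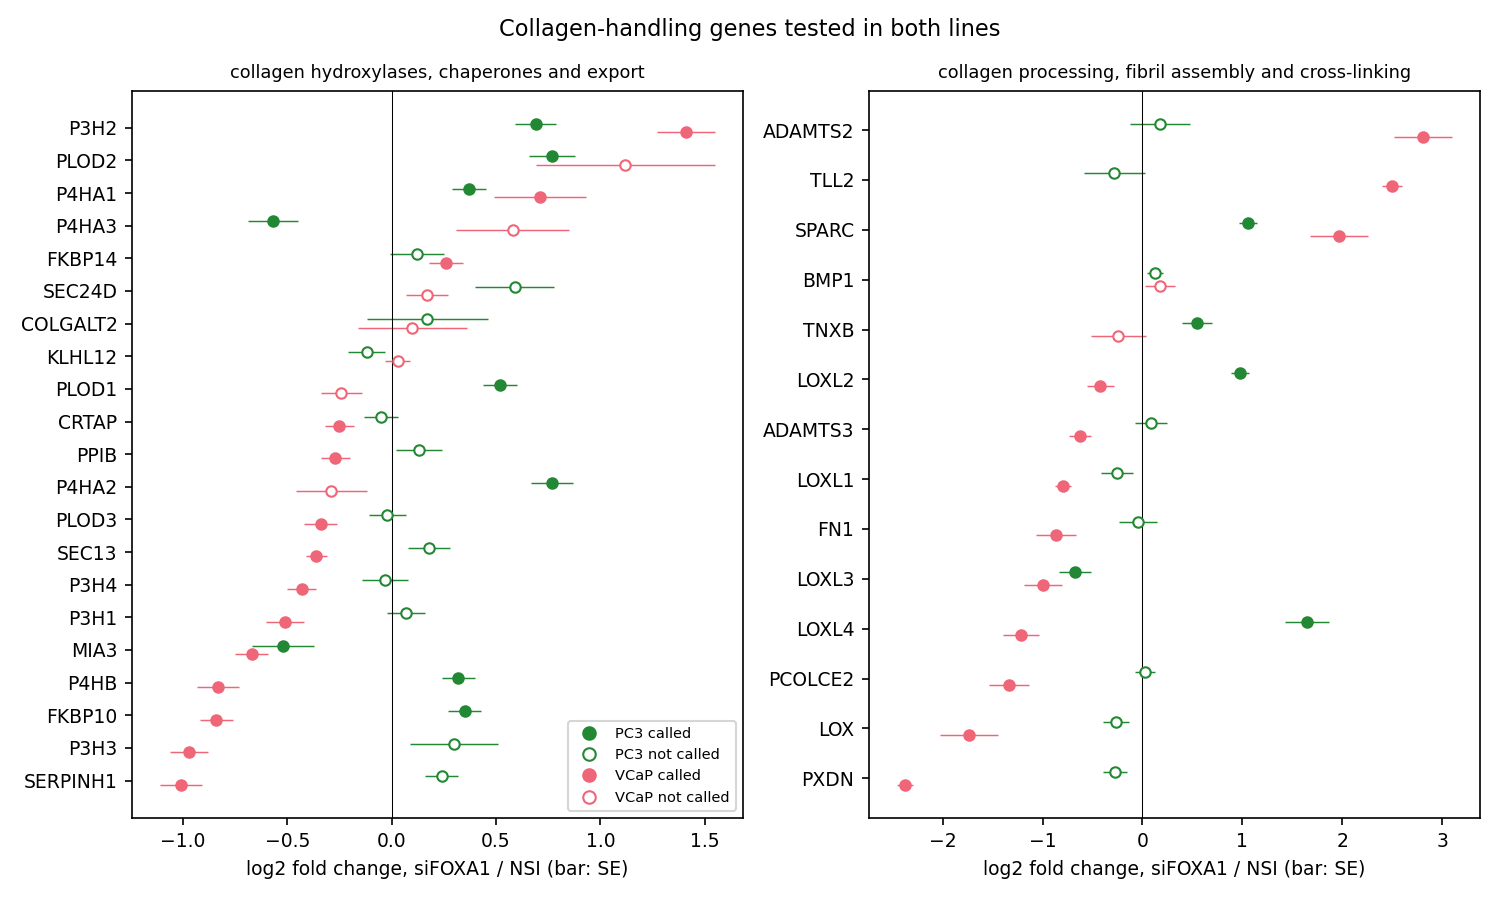
Log2 fold change (with SE) of the genes that modify and export collagen (left) and process and cross-link it (right) in PC3 (green) and VCaP (red), for genes tested in both lines; filled points were called. The lowest VCaP points are SERPINH1 (-1.01) on the left and PXDN (-2.38) on the right.

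Among 10 collagen receptor genes, 4 of 9 tested rose and 1 fell in PC3 (median 0.35). In VCaP 3 of 8 rose and 1 fell (median 0.14), and the called share there is near the 45.8% of all genes. Of these 3, ITGA11 passed the filter only through its siFOXA1 libraries, with 4, 2 and 1 NSI counts against 10, 10 and 12. ITGA2, the α2 integrin chain, was 147, 77.4 and 128 CPM against 257, 189 and 247 CPM in PC3 and rose by 0.98 (SE 0.22, edgeR adjusted p = 0.0124), whereas in VCaP it fell (-0.73). ITGA1 did the reverse, with -0.51 in PC3 and 0.85 in VCaP, and the discoidin receptor gene DDR1 rose in both (0.30 and 0.56). With the replicate block 6 receptor genes were called higher in PC3, ITGB1 and MRC2 in addition.

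Of 16 collagen-degrading proteases and their inhibitors, 7 of 14 tested rose in PC3 and 3 of 7 rose in VCaP, and the others were not called (medians 0.24 and 0.27). The VCaP share called is near the 45.8% of all genes. With the replicate block MMP16 was called lower in PC3. MMP13, collagenase 3, was 14.6, 13.4 and 13.9 CPM against 102, 99.4 and 104 CPM in PC3, a rise of 2.87 (SE 0.08, edgeR adjusted p = 5.78e-07), and MMP15 (1.58), MMP14 (0.98) and CTSL (0.58) rose as well. In VCaP TIMP2, a metalloproteinase inhibitor, rose by 1.30 and MMP15 by 0.57.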

How the data were processed

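The deposited values are estimated counts of fragments per gene, made by the authors and not normalized. Per the file headers, featureCounts 2.0.0 (Subread) counted pairs with both ends mapped over the exons of GENCODE release 28 lifted to GRCh37, divided multi-mapping and overlapping fragments among genes, ignored strand for PC3 and used it for VCaP. STAR 2.7.3a is named in the submitters' processing notes. A stranded kit counted without strand mixes antisense reads into PC3 values.

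Counts were rounded to the nearest whole number, ties upward, and each line's 6 libraries were fitted in edgeR 4.0.16 (R 4.3.3) with TMM factors, the default filter on low counts and the quasi-likelihood test. The interaction used all 12 libraries. Calls are at a Benjamini-Hochberg adjusted p under 0.05 over all genes. Total counts per library limit the precision of genes with few counts. Partner ratios were compared by exact permutation. The fits were tested on simulated data.

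The collagen genes, lists and tests were chosen with earlier results of these data known. Those called with a mean of at least 1 CPM are given in every library, others by log2 fold change or range, and list genes by the 4 largest changes a direction with a mean of at least 5 CPM. Same-numbered PC3 libraries deviated from their group means together, with correlations over genes of at least 1 CPM of 0.45, 0.59 and 0.25 (0.15, 0.31 and 0.095 over all tested genes), and were taken to pair. Libraries of unlike number also correlated (0.35 for NSI 1 with siFOXA1 3, 0.24 for NSI 3 with siFOXA1 1), and the last same-number value over all tested genes is under 0.1. The values printed come from the fit without the block, and the blocked value is given where it changes a call. The pairing comes from the data, not from a statement in the labels. Alternatives were DESeq2 1.42.0, other size factors, other filters, a 12-library fit, the replicate block, leaving out each library and, chosen after seeing the data, ties rounded to the even number.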

Additional observations from a re-analysis of the deposited data

Results flagged for a closer look

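The siFOXA1 effect differed between VCaP and PC3 by the edgeR interaction test for 14 collagen genes, given as VCaP minus PC3 log2 fold change. The differences were -4.19 for COL14A1, -3.62 for COL5A2, -3.27 for COL2A1, -3.23 for COL8A1, -3.13 for COL9A1, -1.83 for COL9A2, -1.54 for COL26A1, -1.44 for COL27A1, -1.17 for COL4A6, -1.06 for COL6A1, -0.89 for COL5A1, -0.81 for COL4A5, -0.77 for COL6A2 and -0.58 for COL4A2. COL8A1 and COL9A1 were at most 0.0521 and 0.270 CPM in any VCaP library.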

How the results depend on the processing

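Of the collagen calls, 8 of 17 in PC3, 13 of 14 in VCaP and 11 of 14 in the difference between lines held under every alternative that was run, and no called gene changed sign. Among the collagen genes tested and not called, 5 of 19 in PC3 and 6 of 14 in VCaP were called under some alternative. Leaving out 1 library at a time gave 10 to 16 collagen calls in PC3, 0 to 2 of them lower, and 3963 to 7628 calls over all genes. The lower PC3 count was 0 with library size alone and 1 in the 12-library fit. With the replicate block, 11333 genes were called in PC3, and 2 collagen genes were more positive in VCaP. The VCaP numbers were not taken to pair (correlations 0.11, 0.034 and 0.39), although the last is above the 0.25 of the third PC3 pair. These values leave pairing in VCaP unsettled. In VCaP the block gave 16 collagen calls, COL11A2 and COL6A2 in addition, with 11474 of 22939 genes called. For the modification and export genes it gave 5 higher, with PLOD2 and SEC24D in addition, and 12 lower, with PLOD1 in addition. PLOD2 had 8.71, 7.67 and 26.9 CPM in the VCaP siFOXA1 libraries, highest in replicate 3. The log2 ratio of summed levels was 0.28 in PC3 with library size alone, 0.42 without COL6A1 and -0.74 in VCaP without COL5A2.

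Genes with no call changed sign, and the cause was not tested. COL5A3 in PC3 was 0.01 with DESeq2 size factors and with DESeq2, 0.06 with upper-quartile factors, 0.09 with library size alone, 0.03 with ties rounded to even and 0.04 in the 12-library fit. COL4A1 in PC3 was -0.00 without a filter. COL9A3 in VCaP was 0.05 with upper-quartile factors, 0.03 at a mean of 1 CPM and 0.02 in the 12-library fit. Leaving out 1 library gave -0.23 to 0.02 for COL8A2, -0.06 to 0.18 for COL9A2, -0.11 to 0.28 for COL24A1, -0.00 to 0.29 for COL7A1, -0.11 to 0.65 for COL10A1, -0.04 to 0.10 for COL4A1 and -0.13 to 0.15 for COL5A3 in PC3. In VCaP it gave -0.40 to 0.18 for COL8A2, -0.37 to 1.20 for COL3A1, -0.97 to 0.12 for COL6A3, -0.08 to 0.29 for COL7A1, -3.02 to 0.47 for COL1A2 and -0.18 to 0.19 for COL9A3. The ratio of COL5A1 to COL5A2 shifted by -0.05 to 0.03 in PC3, and in VCaP COL1A1 to COL1A2 by -0.35 to 0.51 and COL6A3 to COL6A1 by -0.17 to 1.47. Depth limits the genes with few counts.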

Other observations

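COL2A1, COL9A2 and COL27A1, which fell in VCaP, encode cartilage collagens, while the cartilage collagen genes COL11A2 (0.54, called higher with the replicate block) and COL9A3 (-0.00) were not called there and COL9A1, COL10A1 and COL11A1 were not tested. A list of 10 other cartilage genes was chosen after these values were seen. SOX9, a transcription factor known to activate COL2A1, had VCaP NSI values of 20.5, 23.6 and 20.1 CPM, against 23.8, 24.1 and 23.5 CPM after siFOXA1, a log2 fold change of 0.15 that edgeR did not call (adjusted p = 0.12). Its cofactor genes SOX5 and SOX6 were called higher in VCaP. SOX6 went from 2.92 to 5.95 CPM up to 6.45 to 8.06 CPM (0.71), and SOX5 from at most 0.199 CPM to 0.781 to 1.13 CPM (2.52). SOX5 passed the filter on low counts only through its siFOXA1 libraries, with 9, 10 and 8 NSI counts against 52, 57 and 41. The cartilage matrix genes ACAN, HAPLN1, MATN1, MATN3, MATN4 and CHAD did not pass the filter in VCaP, and COMP was not called (-0.38). In PC3 HAPLN1, a hyaluronan link protein gene, had NSI values of 836, 652 and 821 CPM against 289, 252 and 299 CPM and fell by 1.46 (SE 0.12, edgeR adjusted p = 8.39e-05), and SOX9 rose by 0.32 (SE 0.09, edgeR adjusted p = 0.026).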
